A study of Mus musculus with 8 samples.

Results

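The genes described here encode the collagens and the stromal matrix proteins of the mouse mammary gland. They were taken from a table of normalized array values by gene symbol, as every symbol of the form Col, number, a, number, together with 18 named matrix genes, and with 1 probe set kept per gene, the one with the highest mean over the 8 arrays. This gave 62 of 25050 named genes, of which 44 were collagen chains and 18 were other matrix proteins. Col21a1 was not analysed here. RNA came from mammary epithelial cells of FVB mothers in a first parity, labelled WT, and each of the 8 arrays was assigned by its title to day 14 of pregnancy (secretory differentiation, 4 arrays) or day 4 of lactation (secretory activation, 4 arrays). No ages and no transgene or treatment are given in the labels, so the stage is the only contrast they name. Anything else that went with the stage, such as a processing batch, could not be told apart from it. The labels state that adipocytes had been removed by rapid enzymatic digestion of the tissue. They mention no sorting, and other cells of the gland can remain in such a preparation. Nothing in the labels says whether the arrays of a stage came from different mothers, and p-values then cover only the spread between these arrays, which may be technical.

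Collagens are chains that wind into triple helices. Collagens I, III and V assemble into the tensile fibrils of connective tissue, collagen IV forms the sheet of the basement membrane under epithelium and endothelium, and collagen VI forms beaded filaments around cells. Fibroblasts make most of the fibrillar matrix of the gland, elastic microfibrils are built on fibrillin, and small proteoglycans such as decorin and lumican coat collagen fibrils. Matricellular proteins, among them the thrombospondins, tenascin C, periostin and SPARC, sit in the matrix and act on cells and growth factors rather than bear load. During pregnancy the alveoli expand into the stroma, and in lactation they fill most of the gland.

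Values are log2 units made by the authors with GC-RMA, a background correction by probe sequence followed by normalization between arrays, and ran from 2.14 to 13.03 over all genes and arrays. Epithelial markers were present on every array, with Epcam, an epithelial adhesion molecule, at 9.78 to 10.17 and Csn2, beta-casein, at 12.29 to 12.81. Their levels were not all steady, and Krt8, Krt18 and Cdh1, also epithelial, were called lower in lactation, as given below. Endothelial and fibroblast genes were also measured, with Cdh5, the adhesion molecule of endothelium, at 8.69 to 10.22 and Pdgfra, a receptor of fibroblasts, at 5.49 to 7.48. Lactation array 2 stood apart for many matrix genes, and for markers of several other cell types given below. It was the lowest lactation array for 33 of the 62 matrix genes (53.2%), against 21.8% of all genes, and for 17 of the 18 that are not collagens. Of the 44 collagen chains this held for 16 (36.4%). Pregnancy array 2 was the highest pregnancy array for 25 of the 62 (40.3%), against 20.6% of all genes. Where leaving out these arrays ended the call of a matrix gene, the value without them is given, while for the other lists only counts are given.

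Among the 62 matrix genes 12 were lower and 1 was higher at lactation day 4 at an adjusted p under 0.05 (limma, Benjamini-Hochberg over all 25050 genes), and 49 did not pass. The 12 make up 19.4% of the genes, against 16.1% of all genes called lower, and the 1 makes up 1.6%, against 9.73% of all genes called higher. The pooled share called lower was thus near that of the whole array, but its 2 parts differed. Of the 44 collagen chains 4 were called lower and 0 higher, with a median log2 fold change of 0.07. Of the 18 other matrix genes 8 were called lower and 1 higher, with a median of -0.61. The median log2 fold change of the 62 was -0.08, against 0.01 for all genes. A called fall of at least 2-fold was found for 9 genes (14.5%), against 1.71% of all genes. That count rested on single arrays and on the scaling. It was 2 without lactation array 2 (Thbs1 and Fn1), 3 without pregnancy array 1, 2 or 3 (Thbs1, Fn1 and Fbn1), and 1 without both arrays numbered 2 (Thbs1). It was 5 with quantile normalization and 3 with centring on the brighter 60% of genes. In these settings 1.03% to 1.68% of all genes had such a fall. Every lactation array lay below every pregnancy array for 12 genes (19.4%, against 17.4% of all genes) and above for 3 (4.8%, against 12.1%). The number called lower was 7 without pregnancy array 1, 7 without pregnancy array 2 and 7 without pregnancy array 3, and 9 without lactation array 1 or 2. The share of all genes called lower dropped as well. It was 12.3%, 12.7% and 11.5% without pregnancy arrays 1, 2 and 3, and 13.7% and 13.1% without lactation arrays 1 and 2. In bulk samples such as these, fewer cells of a type and less RNA per cell cannot be told apart.

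**Figure D1:**
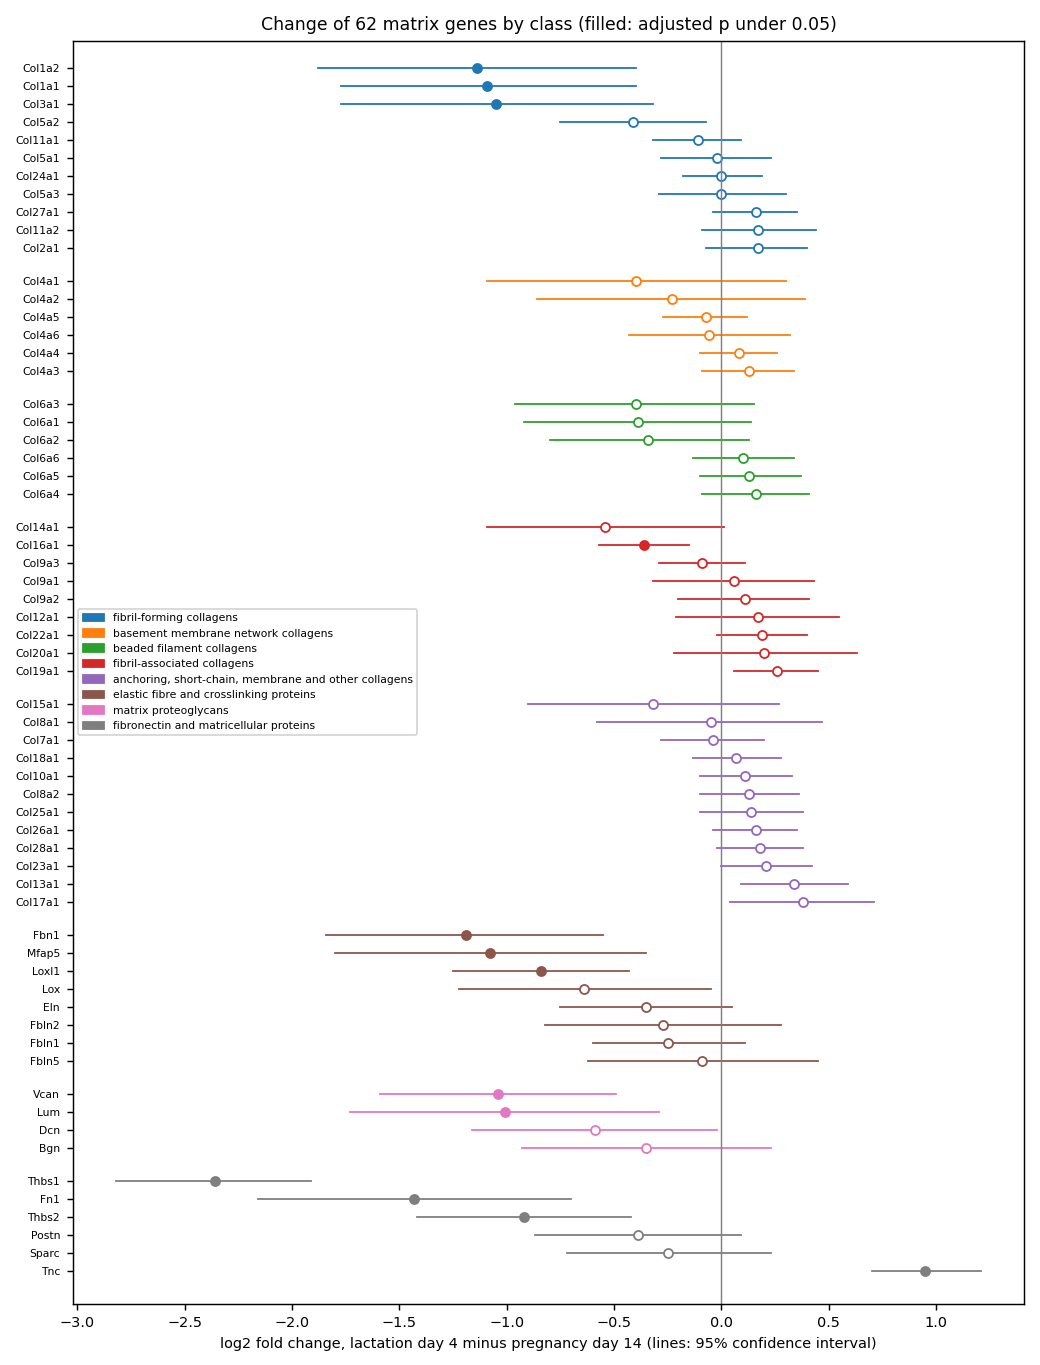
Log2 fold change of each of the 62 matrix genes (x axis, lactation day 4 minus pregnancy day 14) with its 95% confidence interval, 1 gene per row, coloured by class and filled where the adjusted p was under 0.05. The 12 called falls lie among fibril-forming and fibril-associated collagens, elastic fibre genes, proteoglycans and matricellular genes, the 1 called rise is Tnc, and no chain of collagen IV or VI is filled.

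The split of these calls moved with the scaling of the arrays. With quantile normalization 8 matrix genes were lower and 4 higher, with median centring 12 and 3, and with centring on the brighter 60% of genes 11 and 18. Over all 25050 genes the calls were 2926 lower and 2575 higher, 3311 and 3719, and 2373 and 10807, in the same order. That last scaling moved the median of all genes to 0.19. The 17 rises it adds are all collagen chains, with log2 fold changes of 0.25 to 0.55, among the 10807 genes called higher. No called gene changed its direction under any of these 3 scalings.

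The largest change was that of Thbs1, encoding thrombospondin 1, which binds cells and activates latent TGF-beta. Its log2 values were 9.12, 8.62, 9.31 and 8.89 on pregnancy arrays 1 to 4 and 6.50, 6.14, 7.05 and 6.82 on lactation arrays 1 to 4. The groups were far apart, with the highest lactation array well below the lowest pregnancy array. Thbs1 fell by 2.36 log2 units, or 5.14-fold (SE 0.204, limma adjusted p = 4.71e-05). Its fall was at least 2.19 and at most 2.50 in size under all 18 alternative settings, and it was 2.20 without lactation array 2 and 2.48 without pregnancy array 2.

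Tnc, encoding tenascin C, a hexameric glycoprotein that counters adhesion of cells to fibronectin, went the other way. It measured 7.69, 7.84, 7.79 and 7.93 in pregnancy and 8.69, 8.65, 8.63 and 9.10 in lactation. All lactation arrays were above all pregnancy arrays, and lactation array 4 was the highest. Tnc rose by 0.95 log2 units, or 1.94-fold (SE 0.115, limma adjusted p = 0.00035), and kept its call under all 18 alternatives, at 0.84 to 1.13. It was the only matrix gene outside the collagens with a positive log2 fold change.

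Thbs2, encoding thrombospondin 2, a secreted modulator of fibril assembly, measured 6.73, 7.09, 6.64 and 6.77 in pregnancy and 5.87, 5.18, 6.11 and 6.37 in lactation. The groups did not overlap, and lactation array 2 was the lowest of the 8. Thbs2 fell by 0.92 (SE 0.225, limma adjusted p = 0.0144), a call held under all 18 alternatives, at -0.59 without both arrays numbered 2.

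Fn1 encodes fibronectin, the glycoprotein that links integrins to collagen. It measured 8.16, 9.15, 8.50 and 8.68 in pregnancy and 6.94, 6.35, 8.03 and 7.45 in lactation. The lactation arrays were spread over a wider range than the pregnancy arrays, and the closest pair across the stages, lactation array 3 and pregnancy array 1, differed little. Fn1 fell by 1.43, or 2.69-fold (SE 0.328, limma adjusted p = 0.0109), and by 0.97 without both arrays numbered 2, and held its call under all 18 alternatives.

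The other matricellular genes did not pass. Sparc, encoding a collagen-binding glycoprotein, measured 11.05, 11.35, 11.27 and 10.87 in pregnancy and 11.14, 10.15, 11.02 and 11.23 in lactation. Apart from lactation array 2 the stages overlapped fully. The log2 fold change of Sparc was -0.25 (95% confidence interval -0.72 to 0.23, limma adjusted p = 0.407). Postn, encoding periostin, stood at -0.39 (limma adjusted p = 0.204). Of the 18 alternatives it passed only without lactation array 3, at -0.59. It stood at -0.17 without lactation array 2 and at -0.15 without both arrays numbered 2.

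**Figure D2:**
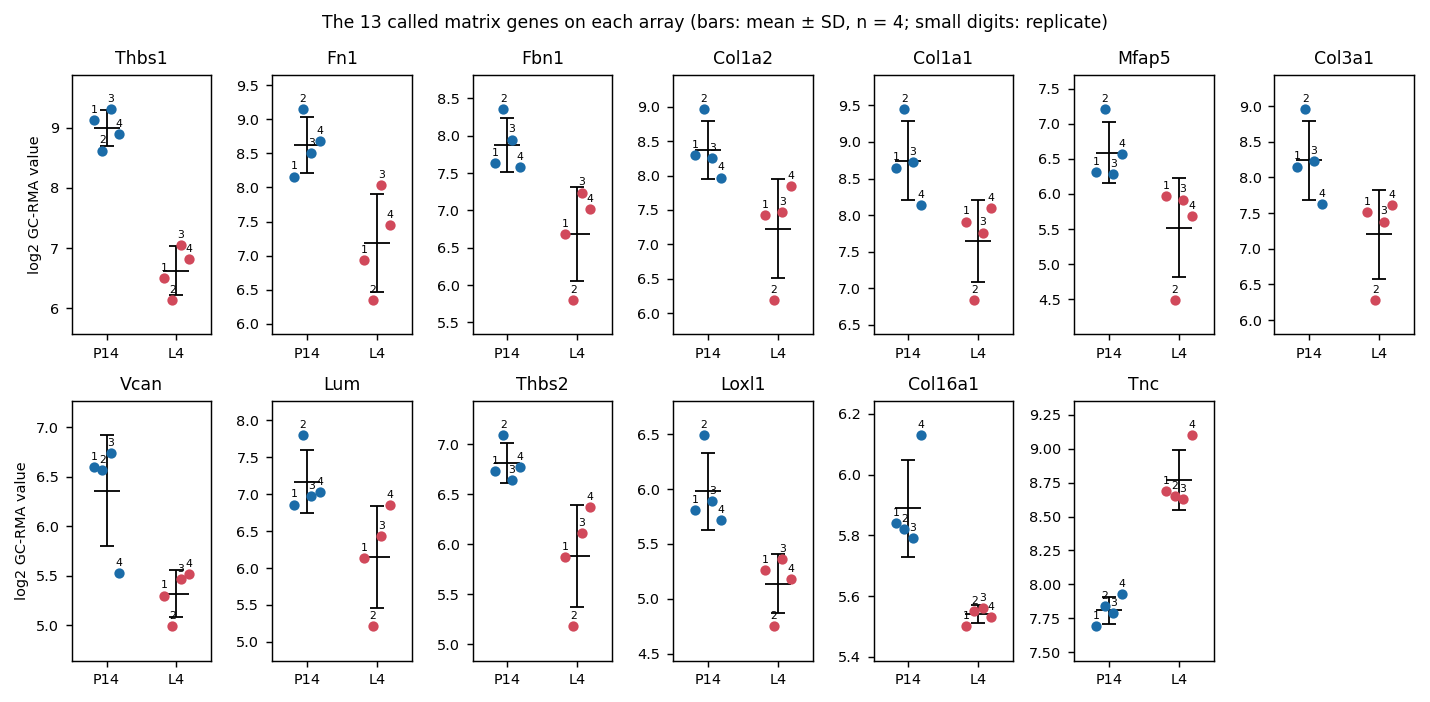
Log2 GC-RMA values (y axis) of the 13 called matrix genes on each array, pregnancy day 14 (P14, blue) and lactation day 4 (L4, red), with the mean and SD of 4 arrays as bars and the replicate number beside each point, each panel on its own scale. The stages do not overlap in any panel, and lactation array 2 is the lowest point in most panels with a fall, for example at 4.49 for Mfap5.

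Promoter sequence is shown for 3 of the falls, from different classes, and for the rise, so that genes that moved alike and oppositely can be read side by side. Each line gives the 250 bases before the annotated start furthest upstream, 5′ to 3′ on the gene's own strand, from RefSeq on build GRCm38.p6, with capitals marking CCAAT (the CCAAT box) and GGGCGG (the GC box) and TATAAA (the TATA box) on either strand. The stretches are chr6:4505368-4505617 on the plus strand for Col1a2, chr13:89742513-89742762 on the minus strand for Vcan, chr17:14694263-14694512 on the minus strand for Thbs2 and chr4:64047016-64047265 on the minus strand for Tnc.
Col1a2: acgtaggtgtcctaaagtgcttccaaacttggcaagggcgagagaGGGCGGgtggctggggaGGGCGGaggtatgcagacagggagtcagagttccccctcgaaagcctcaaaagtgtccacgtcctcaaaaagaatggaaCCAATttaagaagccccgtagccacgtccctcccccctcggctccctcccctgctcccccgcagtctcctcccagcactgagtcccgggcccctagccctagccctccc
Vcan: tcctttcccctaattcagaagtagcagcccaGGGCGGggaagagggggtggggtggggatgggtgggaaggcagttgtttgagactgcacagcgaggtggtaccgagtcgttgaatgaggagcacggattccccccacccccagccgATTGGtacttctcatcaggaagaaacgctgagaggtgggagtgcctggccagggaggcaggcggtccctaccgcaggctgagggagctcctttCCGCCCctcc
Thbs2: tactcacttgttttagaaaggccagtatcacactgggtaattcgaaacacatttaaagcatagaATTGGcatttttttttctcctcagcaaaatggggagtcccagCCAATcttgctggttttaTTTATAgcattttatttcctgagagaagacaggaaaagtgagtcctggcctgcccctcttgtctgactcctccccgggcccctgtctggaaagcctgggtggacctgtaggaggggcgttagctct
Tnc: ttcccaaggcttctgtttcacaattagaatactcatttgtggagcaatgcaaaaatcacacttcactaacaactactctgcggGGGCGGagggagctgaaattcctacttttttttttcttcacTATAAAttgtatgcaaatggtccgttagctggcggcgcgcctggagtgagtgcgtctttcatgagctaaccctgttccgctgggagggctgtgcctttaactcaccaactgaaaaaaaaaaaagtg

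The upstream stretch of Col1a2 held 2 GGGCGG motifs and 1 CCAAT motif, and that of Vcan held the same numbers. Thbs2 had 2 CCAAT motifs and 1 TATAAA motif with no GGGCGG, and Tnc had 1 GGGCGG and 1 TATAAA motif with no CCAAT. A promoter was listed for 45 of the 62 matrix genes, and for 7 of the 13 called ones. Of the 45, 27 held GGGCGG (60%, against 33.0% of 27025 promoters of the same length), 15 held CCAAT (33.3%, against 34.5%) and 7 held TATAAA (15.6%, against 13%). GGGCGG overlaps neither of the other motifs in sequence, and a match is a match of letters only. GGGCGG was found for the falls Col1a2, Vcan, Fbn1 and Col16a1, for the rise Tnc and for genes not called, such as Bgn. It was absent for the falls Col3a1 and Thbs2. The promoters were not matched for base composition, and a link between the motif and the changes was not tested.

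Of the 11 fibril-forming collagen chains 3 fell, and they were the chains of collagens I and III. Col1a1 and Col1a2 encode the chains of collagen I, the main fibril of connective tissue. Col1a1 measured 8.65, 9.45, 8.72 and 8.14 in pregnancy and 7.91, 6.84, 7.76 and 8.10 in lactation. Lactation array 4 and pregnancy array 4 nearly met, and lactation array 2 lay more than 1 log2 unit below any pregnancy array. Col1a1 fell by 1.09, or 2.13-fold (SE 0.308, limma adjusted p = 0.0277). Of the settings that leave out 1 array, the call of Col1a1 ended without lactation array 2 (-0.82, adjusted p = 0.0509 in limma) and without pregnancy arrays 1 (-1.12, 0.0546), 2 (-0.85, 0.0647) or 3 (-1.09, 0.0636), and without both arrays numbered 2 the log2 fold change was -0.58 (0.0534).

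Col1a2 measured 8.30, 8.97, 8.26 and 7.97 in pregnancy and 7.42, 6.19, 7.47 and 7.85 in lactation. The same arrays were extreme as for Col1a1. Col1a2 fell by 1.14, or 2.20-fold (SE 0.331, limma adjusted p = 0.0305). Of the settings that leave out 1 array, the call of Col1a2 ended without lactation array 1 (-1.20, adjusted p = 0.0504 in limma) and without pregnancy arrays 1 (-1.17, 0.0599), 2 (-0.94, 0.0795) or 3 (-1.18, 0.0623), and the log2 fold change without both arrays numbered 2 was -0.60.

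Col3a1, the chain of collagen III, which mixes with collagen I in compliant tissue, measured 8.15, 8.96, 8.23 and 7.63 in pregnancy and 7.51, 6.28, 7.38 and 7.61 in lactation. Here the stages nearly touched, at the arrays numbered 4. Col3a1 fell by 1.05 (SE 0.327, limma adjusted p = 0.0409), a call that ended under 11 of 18 alternatives. It ended without lactation arrays 1 (-1.15, adjusted p = 0.0529 in limma), 2 (-0.74, 0.0712) or 3 (-1.11, 0.0551) and without pregnancy arrays 1 (-1.08, 0.0734), 2 (-0.81, 0.0977) or 3 (-1.05, 0.0866), and the log2 fold change was -0.50 (0.0791) without both arrays numbered 2. The number of fibril-forming chains called lower was 1 without lactation array 1 or 2, 0 without pregnancy array 1, 2 or 3, and 1 without both arrays numbered 2.

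The remaining fibril-forming chains missed the threshold. Col5a2, a chain of collagen V, which sets the diameter of collagen I fibrils, had a log2 fold change of -0.41 (95% confidence interval -0.75 to -0.07, limma adjusted p = 0.0714). Of the 18 alternatives Col5a2 passed only without pregnancy array 4, at -0.54, and it stood at -0.22 without both arrays numbered 2. Its partner Col5a1 stood at -0.02 (interval -0.28 to 0.23). The cartilage chains Col2a1, Col11a1 and Col11a2 and the chains Col5a3, Col24a1 and Col27a1 lay between -0.11 and 0.17. Their values on single arrays stayed between 4.64 and 5.84. The dimmest 40% of all genes had means below 4.72.

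None of the 6 chains of the basement membrane collagen IV passed in limma, and 0 had an unadjusted p under 0.05. Col4a1 and Col4a2 encode the ubiquitous chains, found under nearly all epithelium and endothelium. Col4a1 measured 8.06, 8.31, 8.27 and 7.27 in pregnancy and 7.87, 6.72, 7.58 and 8.14 in lactation. The stages overlapped, with lactation array 2 lowest and pregnancy array 4 next. Lactation minus pregnancy was -0.40 for Col4a1 (95% confidence interval -1.09 to 0.30, limma adjusted p = 0.367), and it was 0.00 without both arrays numbered 2. Col4a2 stood at -0.23 (-0.86 to 0.39). Col4a3 and Col4a4, of kidney and lung, and Col4a5 and Col4a6, of skin and smooth muscle among other sites, lay between -0.07 and 0.13.

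The 3 common chains of collagen VI, which links cells to the fibrils around them, had negative log2 fold changes that did not pass. Of all 6 collagen VI chains 0 passed in limma and 0 had an unadjusted p under 0.05. Col6a2 measured 6.99, 7.76, 7.15 and 7.05 in pregnancy and 7.14, 6.40, 6.89 and 7.17 in lactation. The stages overlapped, with lactation array 2 the lowest and pregnancy array 2 the highest of the 8. Its log2 fold change was -0.34 (limma adjusted p = 0.252), and those of Col6a1 and Col6a3 were -0.39 and -0.40. The related chains Col6a4, Col6a5 and Col6a6 lay between 0.10 and 0.16. For Col6a2 the log2 fold change was 0.00 without both arrays numbered 2.

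Among the 9 fibril-associated collagens only Col16a1 passed. It encodes a chain found at fibril and cell surfaces, and measured 5.84, 5.82, 5.79 and 6.13 in pregnancy and 5.50, 5.55, 5.56 and 5.53 in lactation. The lactation arrays were close together and all below the pregnancy arrays, with pregnancy array 4 the highest. Col16a1 fell by 0.36 (SE 0.0948, limma adjusted p = 0.0209), a small change whose call ended with quantile normalization (-0.25, 0.0827), with centring on the brighter genes (-0.18, 0.133) and without both arrays numbered 2 (-0.39, 0.0654). Col14a1, which decorates collagen I fibrils, had a log2 fold change of -0.54 (95% confidence interval -1.09 to 0.01, limma adjusted p = 0.131). Of the 18 alternatives Col14a1 passed only without lactation array 3, at -0.77, and it stood at -0.30 without both arrays numbered 2.

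Col9a1, a chain of collagen IX, known from cartilage, was the gene of this class with the highest mean. It measured 7.82, 7.77, 7.81 and 7.56 in pregnancy and 7.91, 7.87, 7.26 and 8.14 in lactation. The pregnancy arrays lay inside the range of the lactation arrays. For Col9a1 the difference was 0.06 in log2 units (95% confidence interval -0.32 to 0.43, limma adjusted p = 0.82), while Col9a2 and Col9a3 stood at 0.11 and -0.09. Col12a1, Col19a1, Col20a1 and Col22a1 lay between 0.17 and 0.26.

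None of the 12 collagens that anchor, span membranes or form short networks passed in limma, and 2 were higher at an unadjusted p under 0.05. Col15a1, of vascular and muscle basement membrane zones, measured 7.20, 7.57, 7.70 and 6.68 in pregnancy and 7.06, 6.38, 6.94 and 7.49 in lactation. The stages overlapped, with the lowest array in lactation and the highest in pregnancy. Its log2 fold change was -0.32 (95% confidence interval -0.90 to 0.27, limma adjusted p = 0.392). Col17a1, the transmembrane collagen of hemidesmosomes, and Col13a1, another transmembrane collagen, were higher on every lactation array than on any pregnancy array. Their log2 fold changes of 0.38 and 0.34 missed the threshold (limma adjusted p = 0.0899 and 0.0518). Both passed with quantile normalization, at 0.54 and 0.39, and with centring on the brighter 60% of genes, at 0.55 and 0.51. Col13a1 alone passed with median centring, without an intensity trend, with the replicate block, without the dimmest 40% of genes and without lactation array 3. Col18a1, which carries endostatin, and Col7a1, of anchoring fibrils, stood at 0.07 and -0.04. The other 7 lay between -0.05 and 0.21.

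**Figure D3:**
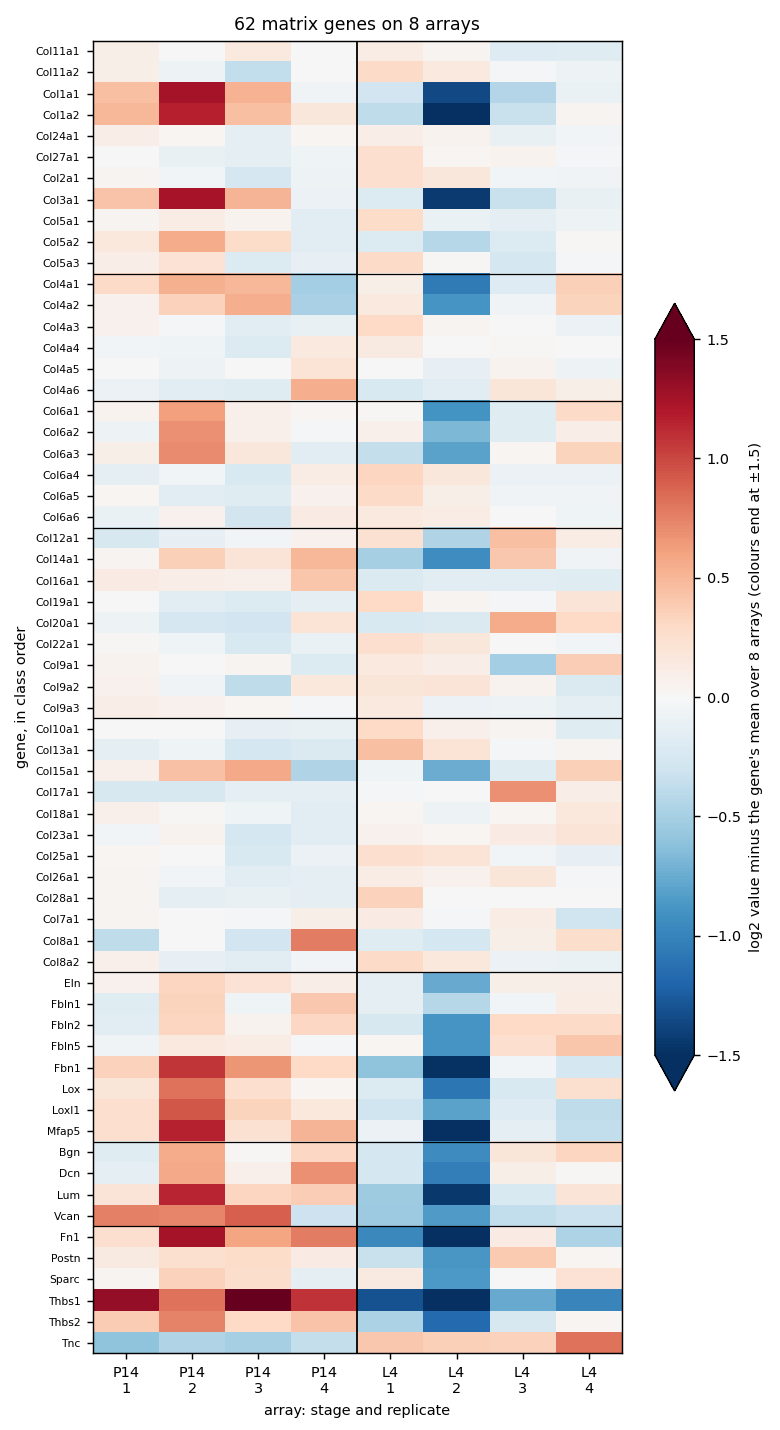
Each of the 62 matrix genes (rows, in class order) on each of the 8 arrays (columns), as the log2 value minus the gene's mean over the 8 arrays, with red above and blue below that mean. Lactation array 2 is below the gene mean for 17 of the 18 genes that are not collagens and for 22 of the 44 collagens, whereas Thbs1 and Tnc differ between the stages on all arrays.

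All 8 elastic fibre and crosslinking genes had negative log2 fold changes, from -1.19 to -0.09, and 3 of them fell. Fbn1 encodes fibrillin 1, the backbone of microfibrils. It measured 7.63, 8.36, 7.95 and 7.58 in pregnancy and 6.68, 5.80, 7.24 and 7.02 in lactation. Every lactation array was below every pregnancy array. Fbn1 fell by 1.19, or 2.29-fold (SE 0.291, limma adjusted p = 0.0145), held its call under all 18 alternatives, and stood at -0.74 without both arrays numbered 2.

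Loxl1 encodes a lysyl oxidase that crosslinks elastin. It measured 5.81, 6.49, 5.89 and 5.72 in pregnancy and 5.26, 4.75, 5.36 and 5.18 in lactation, with no overlap. Loxl1 fell by 0.84 (SE 0.185, limma adjusted p = 0.00889), a call held under all 18 alternatives, at -0.54 without both arrays numbered 2. Its relative Lox, which crosslinks collagen as well, had a log2 fold change of -0.64 (95% confidence interval -1.22 to -0.05, limma adjusted p = 0.0998). Of the 18 alternatives Lox passed only without lactation array 4, at -0.82, and it stood at -0.22 without both arrays numbered 2.

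Mfap5, a glycoprotein of microfibrils, measured 6.31, 7.21, 6.28 and 6.57 in pregnancy and 5.97, 4.49, 5.92 and 5.69 in lactation. Lactation array 2 lay more than 1 log2 unit below the other 7 arrays. Mfap5 fell by 1.08 (SE 0.325, limma adjusted p = 0.0357). The call ended with quantile normalization (-0.97, 0.0683). Of the settings that leave out 1 array, it ended without lactation array 4 (-1.13, adjusted p = 0.0544 in limma) and without pregnancy arrays 1 (-1.17, 0.0524), 2 (-0.87, 0.0900), 3 (-1.18, 0.0534) or 4 (-1.08, 0.0652), and the log2 fold change was -0.53 without both arrays numbered 2.

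Fbln5, a fibulin needed for elastic fibre assembly, measured 7.23, 7.43, 7.39 and 7.25 in pregnancy and 7.31, 6.40, 7.53 and 7.70 in lactation. All but lactation array 2 lay close together. Its log2 fold change was -0.09 (95% confidence interval -0.62 to 0.45, limma adjusted p = 0.814), and 0.23 without both arrays numbered 2. Eln, encoding elastin, Fbln1 and Fbln2 stood at -0.35, -0.25 and -0.27 without passing.

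Of the 4 proteoglycans 2 fell. Vcan encodes versican, a large hyaluronan-binding proteoglycan of expanding matrix. It measured 6.60, 6.57, 6.74 and 5.53 in pregnancy and 5.30, 4.99, 5.47 and 5.52 in lactation. Pregnancy array 4 sat at the level of the lactation arrays and apart from the other pregnancy arrays. Vcan fell by 1.04 (SE 0.246, limma adjusted p = 0.0127), and by 1.32 without pregnancy array 4. Its call ended without both arrays numbered 2 (-0.86, 0.0816) and held under the other 17 alternatives.

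Lum, encoding lumican, measured 6.86, 7.80, 6.98 and 7.03 in pregnancy and 6.13, 5.21, 6.43 and 6.85 in lactation. The stages nearly touched, at lactation array 4 and pregnancy array 1. Lum fell by 1.01 (SE 0.324, limma adjusted p = 0.0445), but its call ended under 13 of 18 alternatives. It ended without lactation arrays 1 (-1.0, adjusted p = 0.0875 in limma), 2 (-0.70, 0.0721) or 3 (-1.10, 0.0520) and without any 1 of the pregnancy arrays (1: -1.11, 0.0593, 2: -0.80, 0.110, 3: -1.07, 0.0760, 4: -1.06, 0.0685). Without both arrays numbered 2 the log2 fold change was -0.49 (0.104).

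Dcn, encoding decorin, measured 9.84, 10.55, 10.05 and 10.66 in pregnancy and 9.72, 8.94, 10.07 and 10.00 in lactation. The stages overlapped at their middle values. The difference for Dcn was -0.59 in log2 units (95% confidence interval -1.16 to -0.02, limma adjusted p = 0.118), and -0.25 without both arrays numbered 2. Bgn, encoding biglycan, had -0.35 (limma adjusted p = 0.337).

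Several of these genes lie next to each other in the RefSeq annotation, and neighbours had log2 fold changes of the same sign. Col3a1 and Col5a2 stood at -1.05 and -0.41, Dcn and Lum at -0.59 and -1.01, Col4a1 and Col4a2 at -0.40 and -0.23, and Col6a2 and Col6a1 at -0.34 and -0.39. In the first and second of these pairs 1 gene passed and the other did not, and the difference between neighbours was not tested.

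The machinery that makes collagen changed in both directions. Among 25 genes of collagen folding, processing and crosslinking 10 fell and 3 rose, with a median log2 fold change of -0.31. Of all genes 16.1% were called lower and 9.73% higher, so the share that rose was near that of the whole array. P4hb, the protein disulfide isomerase that is also a subunit of prolyl 4-hydroxylase, rose by 0.79, P4ha2, a catalytic subunit of that enzyme, by 0.50 and Plod3, a lysyl hydroxylase, by 0.41. Adamts3, a procollagen N-proteinase, fell by 1.02, Crtap, of the prolyl 3-hydroxylase complex, by 0.84, Pcolce, which enhances procollagen C-proteinase, by 0.74, and Fkbp10, a collagen chaperone, by 0.72. Serpinh1, the collagen chaperone HSP47, had a log2 fold change of -0.42 without passing (limma adjusted p = 0.0784). The number of these genes called lower was 6 without pregnancy array 2, 5 without pregnancy array 3 and 6 with quantile normalization, and the number called higher was 1 without pregnancy array 3.

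Of 17 other microfibril and leucine-rich matrix genes 6 fell and 0 rose in limma (0 higher also at an unadjusted p under 0.05), with a median of -0.35. Over all genes 16.1% were called lower. Ltbp1, which tethers latent TGF-beta to microfibrils, fell by 1.42, Fmod, encoding fibromodulin, by 1.29, Efemp1, a fibulin, by 0.93 and Mfap2, a microfibril glycoprotein, by 0.52. Among 9 collagen receptor and uptake genes 2 fell (median -0.07), and 1 fell without both arrays numbered 2. Itga2, the alpha subunit of an integrin that binds collagen I, fell by 1.98 and Ddr2, a receptor tyrosine kinase for fibrillar collagen, by 0.66, while Itgb1, the beta subunit that partners Itga2, stood at -0.07 (limma adjusted p = 0.722). Of 14 laminin, nidogen and perlecan genes, the partners of collagen IV, 2 fell (median -0.26), Lamb3 by 0.98 and Lamc1 by 0.69. For the receptor and the laminin lists the share called lower was near the 16.1% of all genes. The call of Lamc1 ended under 12 of 18 alternatives, and the number called lower was 1 without lactation array 1 or without any single pregnancy array.

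Marker lists of other cell types were read on the same arrays, where 16.1% of all genes were called lower and 9.73% higher. Dim genes were called less often. Above the dimmest 40%, where most listed markers lie, 3813 of 15030 genes were called lower and 1696 higher. Among 13 fibroblast markers that are not in the list of matrix genes 7 fell and 1 rose (median -0.64), and their summed log2 level was 69.8 to 76.6 on lactation arrays and 78.4 to 86.1 on pregnancy arrays. Serpinf1 (-1.19), Prrx1, a mesenchymal transcription factor (-1.03), Pi16 (-0.97) and Islr (-0.90) fell, Pdgfra fell by 0.84, and Dpp4, which epithelial cells also express, rose by 0.99. The number of these markers called lower was 4 without lactation array 1, 4 without lactation array 2 and 3 without pregnancy array 2. By its mean, 1 of the 13, Tcf21, lay among the dimmest 40% of genes. Their part in the changes of the matrix genes was not tested.

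The counts that follow stand beside 16.1% of all genes called lower and 9.73% called higher. Macrophage markers were lower in 4 of 10 cases (median -0.68), with a summed level of 62 to 72.7 in lactation and 73.4 to 77.4 in pregnancy. No pericyte marker of 10 and no endothelial marker of 12 passed in limma (1 and 0 were lower at an unadjusted p under 0.05), with medians of -0.16 and -0.05, and their summed levels overlapped between the stages (58.5 to 66.4 against 62.3 to 68.0, and 84.5 to 101.1 against 90.2 to 100). Of 10 myoepithelial markers 1 rose and 1 fell (median 0.06, summed level 81.6 to 92.1 against 85.4 to 87.5), and no Schwann cell marker of 5 passed in limma (1 lower and 1 higher at an unadjusted p under 0.05). Lactation array 2 was the lowest lactation array for all 12 endothelial, 9 of 10 myoepithelial, 8 of 10 pericyte and 8 of 10 macrophage markers. Among 9 adipocyte markers 2 rose (median 0.27), at summed levels of 54.8 to 66.2 and 46.4 to 61.4. These genes were still measured after the removal of adipocytes and varied between arrays. Their mean was 7.35 on lactation array 1 and 5.16 on pregnancy array 4. Of 9 luminal and milk secretion markers 5 rose and 3 fell. The rises were those of Csn2, Csn3, Wap, Lalba and Elf5, by 0.29 to 1.12. The falls were those of Krt8 (-0.96), Krt18 (-1.03) and Cdh1 (-1.19), as large as several falls of matrix genes. Epcam stood at -0.12 and did not pass. The part of these cell types in the matrix values was not tested.

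**Figure D4:**
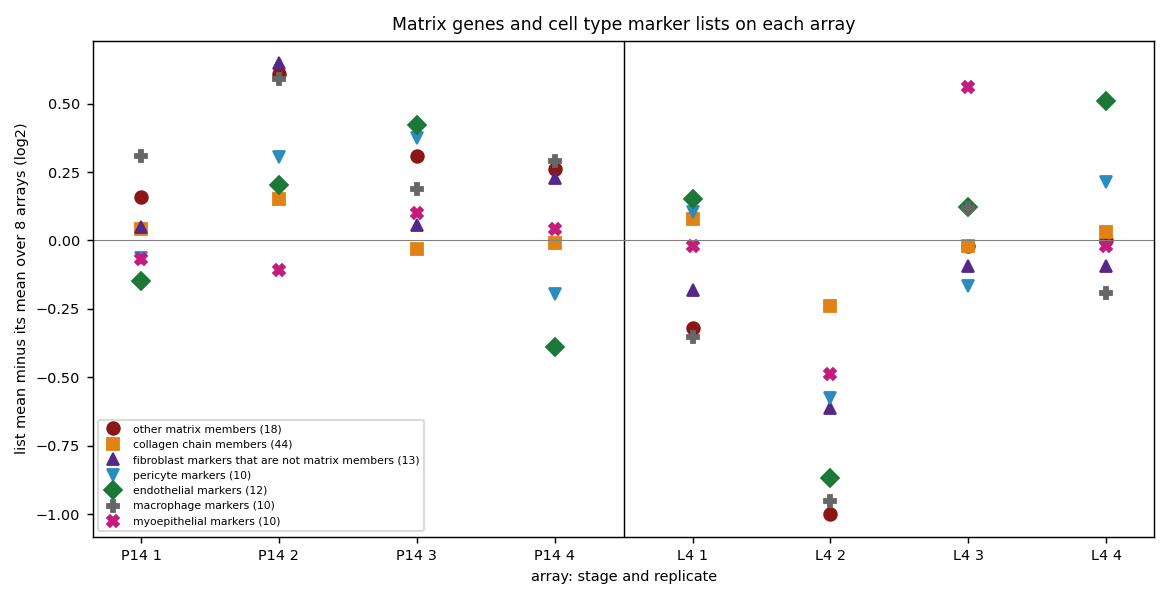
Mean log2 value of each gene list on each array minus that list's mean over the 8 arrays (y axis), for matrix genes and for marker lists of other cell types, with the number of genes in brackets. The 18 matrix genes that are not collagens average 7.63 to 8.08 on pregnancy arrays and 6.47 to 7.47 on lactation arrays, and on lactation array 2 the 7 lists shown lie below 0, while 2 lists not shown lay just above it, the adipocyte markers at 0.03 and the luminal and milk secretion markers at 0.05.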

How the data were processed

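RNA of 4 arrays per stage was measured on Affymetrix whole-transcript arrays, per the labels' protocols. The authors deposited log2 values for each probe set after GC-RMA, a method listed with Partek per the submitters' processing notes. The versions, the options and the build are not given in these sources. Another deposited table matched it exactly (largest difference 0). Of 35556 probe sets 26836 carried a gene symbol, symbols were updated with RefSeq (GRCm38.p6, by accession for 22040), and 25050 genes remained with the brightest probe set of each. Of the 62 matrix genes 3 had more than 1 probe set.

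The stages were compared with limma 3.58.1 (R 4.3.3), with an intensity trend, no further normalization and Benjamini-Hochberg adjustment. Groups came from the sample titles. No filter was applied, and 6 of the 62 genes lay among the dimmest 40%. Precision is limited by the number of arrays, the 95% confidence interval having a median half-width of 0.21 log2 units over all genes. It was wider for several matrix genes, for example -1.77 to -0.40 for Col1a1 and -2.16 to -0.70 for Fn1. Tested on simulated data for this comparison (25050 genes), the fit recovered 50.75% of shifts of 0.5 log2 units, 95.52% of shifts of 1 and 95.45% of shifts of 2, with 10 false calls among 171. Only 67, 67 and 66 genes were shifted there, with independent noise, while the real fit called 4025 genes lower and 2438 higher. These rates are averages over genes and do not describe matrix genes with a wide spread, such as Lum (SE 0.324). Same-numbered arrays of the stages had correlations of their deviations of 0.242, -0.164, 0.151 and 0.178, so the numbers were not used as pairs.

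The genes and lists were chosen with earlier results of these data known. Array values are given for called genes and for the gene of each class with the highest mean, and Col16a1, Loxl1 and Thbs2 were added after their values were seen, since they passed below 2-fold, as were Fbln5, Postn, Col5a2, Col13a1, Col14a1, Col17a1 and Lox. Alternatives covered scaling, the dim filter, the variance model, array weights, the probe set rule, the replicate block and leaving out each array. Leaving out both arrays numbered 2 was chosen after seeing the data.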

Additional observations from a re-analysis of the deposited data

Results flagged for a closer look

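Among 124 sets of 4 arrays (62 genes at 2 stages), 9 held an array whose gap to the nearest other array exceeded Dixon's 95% critical share of the range. Chance flags about 1 in 20 groups. Of the called genes, Col3a1 stood at 6.28 on lactation array 2, against 7.38 to 7.61 on the other lactation arrays. Tnc stood at 9.10 on lactation array 4, against 8.63 to 8.69. Vcan stood at 5.53 on pregnancy array 4, against 6.57 to 6.74, and Col16a1 at 6.13 on that array, against 5.79 to 5.84. Of the genes that were not called, Col5a1 (6.10, against 5.68 to 5.75), Col4a4 (4.43, against 4.29 to 4.31) and Col28a1 (4.41, against 4.05 to 4.07) were high on lactation array 1. Col6a1 was high on pregnancy array 2 (7.63, against 7.05 to 7.09), and Col4a6 on pregnancy array 4 (5.45, against 4.73 to 4.82).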

How the results depend on the processing

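Thbs1, Thbs2, Fn1, Fbn1, Loxl1 and Tnc kept their calls under all 18 alternatives, and no called gene changed direction. The number of matrix genes called lower, 12, was 7 with the replicate block, 7 without both arrays numbered 2, and 7 to 12 when single arrays were left out. The share of all genes called lower was 15.7%, 10.4% and 11.5% to 15.7% in these settings. The number called higher, 1, was 4 after quantile normalization, 3 after median centring, 18 after centring on the brighter 60% of genes, 2 without the dimmest 40% of genes, 2 without an intensity trend, 3 with the replicate block, and 1 to 3 when single arrays were left out. Of all 25050 genes 10807 were called higher after centring on the brighter 60%. The cause of these shifts in count was not tested. Same-numbered arrays did not all deviate together, and not every array correlated best with its own number, so the block pairs numbers only. Under it 0 fibril-forming collagens were called lower, against 3 without it, and the calls of Col1a1, Col1a2, Col3a1, Mfap5 and Lum ended. With 4 arrays a stage, shifts of 0.5 log2 units were often missed on simulated data, in which far fewer genes changed than here.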
